A study of Mus musculus with 10 samples.

Results

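The 10 genes described here encode chaperones and quality-control proteases of mitochondria: Hspd1, Hspe1, Trap1, Dnaja3, Lonp1, Clpp, Clpx, Yme1l1, Afg3l2 and Htra2. They were taken by symbol from a deposited table of 23337 genes, and 10 of 10 were found there and passed the authors' filter on low values. The table compares RNA from cardiomyocytes, the contracting cells of the heart, of wild-type mice that carried one of 2 AAV9 vectors. One vector encoded GFP alone, and the other encoded GFP with dnMKL1, a dominant-negative form of MKL1 (MRTF-A), which is a coactivator of serum response factor. Both vectors used the cTNT (cardiac troponin T) promoter, which drives expression in cardiomyocytes, so the control cells also carried a virus and GFP. Each group had 5 libraries from biological replicates. Per the labels, 5e+08 vector genomes per gram were given on postnatal day 1 and cells were collected on postnatal day 14 by collagenase perfusion and fluorescence-activated sorting, whose gate the labels do not describe.

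Mitochondria import most of their proteins in an unfolded state. Chaperones of the matrix (the inner compartment) fold them, and proteases, many of them driven by ATP, remove those that fail to fold or are no longer needed. Cardiomyocytes are packed with mitochondria and make large amounts of these factors. When matrix proteins misfold, cells can raise their mitochondrial chaperones and proteases, a program known as the mitochondrial unfolded protein response.

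The deposited values describe the groups, and no value per library was used. A base mean is the average of a gene over all 10 libraries in normalized counts, which are reads divided by each library's size factor. Implied group means were obtained by splitting the base mean according to the log2 fold change, and the error of each difference is the deposited standard error (SE), in which the spread between replicates enters. The call used is the authors' Benjamini-Hochberg adjusted Wald p-value, at a threshold of 0.05. Positive log2 fold changes were read as higher in dnMKL1 because Mkl1, from which the vector's product derives, stood at a log2 fold change of 9.80 (SE 0.15) in the authors' deposited table. Library totals, estimated from size factors recovered from genes with a single read, spanned 8802947 to 17123500 reads for GFP and 8835151 to 17228537 for dnMKL1.

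Mitochondrial chaperone and protease transcripts were mostly lower in cardiomyocytes with dnMKL1. Of the 10 genes, 9 were lower past the threshold and 0 were higher, and Yme1l1 did not pass. The log2 fold changes in the authors' deposited table ran from -0.89 (Dnaja3) to -0.16 (Yme1l1), with a median of -0.59, against a median of 0.021 over all 14056 genes tested. Over all genes tested, 34.1% passed the threshold, 17.4% as lower and 16.6% as higher. Among the 7091 genes whose base means lay within the range of the 10, 44.0% passed, 25.7% as lower and 18.3% as higher, and the median log2 fold change was -0.035.

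The number of genes called lower, and the signs of Lonp1 and Yme1l1, depend on the scaling. Centring on the median of genes with base means of at least 10 added -0.0040 to every log2 fold change, and 9 of the 10 genes stayed lower. The implied means of all genes summed to 13330302 normalized counts in GFP and 10915829 in dnMKL1. Of these, the 6 cardiomyocyte markers given below held 1360137 and 725874. Scaling both groups to the same total adds 0.29 to every log2 fold change. Of the 14056 genes tested, 5685 were then higher and 927 lower past the threshold, in place of 2340 higher and 2452 lower. Under that scaling 5 of the 10 genes (Dnaja3, Hspd1, Clpp, Afg3l2 and Htra2) were lower past the threshold, 0 were higher, and the sign turned for Lonp1 (0.05) and Yme1l1 (0.13), neither of which passed. Which scaling is nearer to the RNA per cell was not tested.

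The chaperonins were Hspd1 (HSP60), which forms the barrel in which matrix proteins fold, and Hspe1 (HSP10), its lid. The genes stand head to head on chromosome 1 in the GENCODE annotation of GRCm38, the assembly also called mm10, with Hspd1 at 55077835 to 55088243 on the minus strand and Hspe1 at 55088132 to 55091307 on the plus strand. Their upstream sequence is shared. It is shown because it holds matches to the binding motif of heat shock factor, which was also searched in cytosolic heat shock genes below. Whether heat shock factor acts on any of these genes was not tested. The stretch lies at chr1:55088053-55088082 (GRCm38.p6, plus strand, from RefSeq), 95 to 66 bases before the RefSeq start of Hspe1, and an exon of an alternative Hspd1 transcript covers it. Capitals mark matches to the heat shock element, searched as GAANNTTC and, chosen after the sequence was seen, as a run of 3 alternating units of TTC and GAA set 2 bases apart. Both strands were searched, and the matches overlap one another.
Hspd1-Hspe1 shared promoter: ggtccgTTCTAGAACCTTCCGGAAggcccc
Of 32851 RefSeq promoter windows (250 bases before to 50 after a start), 7.86% held GAANNTTC and 0.603% held a run of 3 units. Of the 8 genes described here with a window, 2 held either, Hspd1 and Hspe1, through this one stretch. Some genes, such as Hspd1, had several windows, and a gene was counted if any of them matched. Counts of genes and shares of windows are therefore not like for like. The table held no window for Afg3l2 or Htra2.

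Both chaperonin transcripts fell. Implied means of Hspd1 were 5401 normalized counts in GFP and 3119 in dnMKL1. The authors' deposited table gave a log2 fold change of -0.79 (SE 0.08, adjusted Wald p = 5.36e-19), a ratio of 0.577 with a 95% interval of 0.515 to 0.647. Hspe1 went from 621 to 444 normalized counts. The authors' deposited table listed Hspe1 at a log2 fold change of -0.48 (SE 0.14, adjusted Wald p = 0.0021), a ratio of 0.715 with an interval of 0.593 to 0.862. Under equal-total scaling Hspd1 stayed lower past the threshold and Hspe1 did not, at -0.20 with an adjusted p of 0.244. The intervals of the partners overlap, and their difference was not tested. Implied means stood at 8.70 Hspd1 counts to 1 of Hspe1 in GFP and 7.02 to 1 in dnMKL1. Per kilobase of exon, the base mean of Hspd1 was 2.56 times that of Hspe1.

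The other chaperones of the set were Dnaja3 and Trap1. Dnaja3 (TID1) is a J-domain protein that stimulates the matrix HSP70, and Trap1 is the HSP90 of mitochondria. Both lie on chromosome 16 in the GENCODE annotation, Trap1 at 4039971 to 4077827 on the minus strand and Dnaja3 at 4639989 to 4707695 on the plus strand. Dnaja3 had the lowest log2 fold change of the 10 genes, at -0.89 (SE 0.08, adjusted Wald p = 1.44e-26) in the authors' deposited table. Its implied mean was 4725 normalized counts in GFP and 2553 in dnMKL1, a decrease of 46.0% with a 95% interval of 39.8% to 51.5%. Trap1, with the highest level of the 10 per kilobase of exon, went from 5527 to 4404 normalized counts. The authors' deposited table gave it a log2 fold change of -0.33 (SE 0.08, adjusted Wald p = 6.65e-04), a decrease of 20.3% with an interval of 10.6% to 29.0%. Trap1 and Dnaja3 had base means of 4965 and 3639 normalized counts, while their intervals for the ratio, 0.710 to 0.894 and 0.485 to 0.602, did not overlap. That call for Trap1 was lost under equal-total scaling, where its log2 fold change was -0.04.

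The matrix proteases were Lonp1, a single-chain ATP-dependent protease that degrades oxidized and unassembled matrix proteins, and the pair Clpp and Clpx, the proteolytic chamber and the unfoldase of the ClpXP protease. In the GENCODE annotation Lonp1 (56614297 to 56626887, minus strand) and Clpp (56990305 to 56996188, plus strand) lie on chromosome 17, and Clpx (65294260 to 65330658, plus strand) on chromosome 9. All of them passed the threshold as lower, by different amounts. Clpp fell from an implied mean of 1098 normalized counts to 660, with a log2 fold change of -0.73 (SE 0.11, adjusted Wald p = 2.51e-09) in the authors' deposited table. Clpx went from 3459 to 2420 normalized counts, with a log2 fold change of -0.52 (SE 0.10, adjusted Wald p = 7.77e-06) in the authors' deposited table. Their intervals for the ratio, 0.516 to 0.702 for Clpp and 0.607 to 0.806 for Clpx, overlap, and the base means per kilobase differed by a factor of 1.14. Under equal-total scaling Clpx was at -0.23 with an adjusted p of 0.0603. Lonp1 changed least of the matrix proteases, from 3012 to 2553 normalized counts. The authors' deposited table gave it a log2 fold change of -0.24 (SE 0.10, adjusted Wald p = 0.0374), a decrease of 15.2% with an interval of 3.56% to 25.5%.

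Afg3l2, Yme1l1 and Htra2 act at the inner membrane and in the space outside it. Afg3l2 is the catalytic subunit of the m-AAA protease, which faces the matrix, and Yme1l1 is the i-AAA protease, which faces the intermembrane space. Htra2 (OMI) is a serine protease of that space. In the GENCODE annotation Yme1l1 lies on chromosome 2 (23156369 to 23199260, plus strand) and Htra2 on chromosome 6 (83051266 to 83055273, minus strand). Afg3l2 went from an implied mean of 4204 normalized counts to 2638. In the authors' deposited table it was at -0.67 (log2; SE 0.07, adjusted Wald p = 9.04e-21), a decrease of 37.3% with an interval of 31.2% to 42.8%. Yme1l1 had implied means of 1130 in GFP and 1014 in dnMKL1. The authors' deposited table gave Yme1l1 a log2 fold change of -0.16 (SE 0.09, adjusted Wald p = 0.160), and its interval for the ratio, 0.798 to 1.01, includes no change. The intervals of the 2 AAA proteases did not overlap, since that of Afg3l2 was 0.572 to 0.688. Implied means stood at 3.72 Afg3l2 counts to 1 of Yme1l1 in GFP and 2.60 to 1 in dnMKL1. Htra2, the least abundant of the 10, went from 211 to 133 normalized counts. The authors' deposited table gave it a log2 fold change of -0.67 (SE 0.14, adjusted Wald p = 3.42e-05). In GENCODE 31.0% of its exon bases also lie in exons of Loxl3 on the opposite strand, which had a base mean of 12.2 in the authors' deposited table. A further gene on the opposite strand, Aup1, covers 2.96% of the exon bases of Htra2 and had a base mean of 759 there. Whether the counting used strand is not given in the sources used here, so the value of Htra2 is uncertain to that extent.

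**Figure D1:**
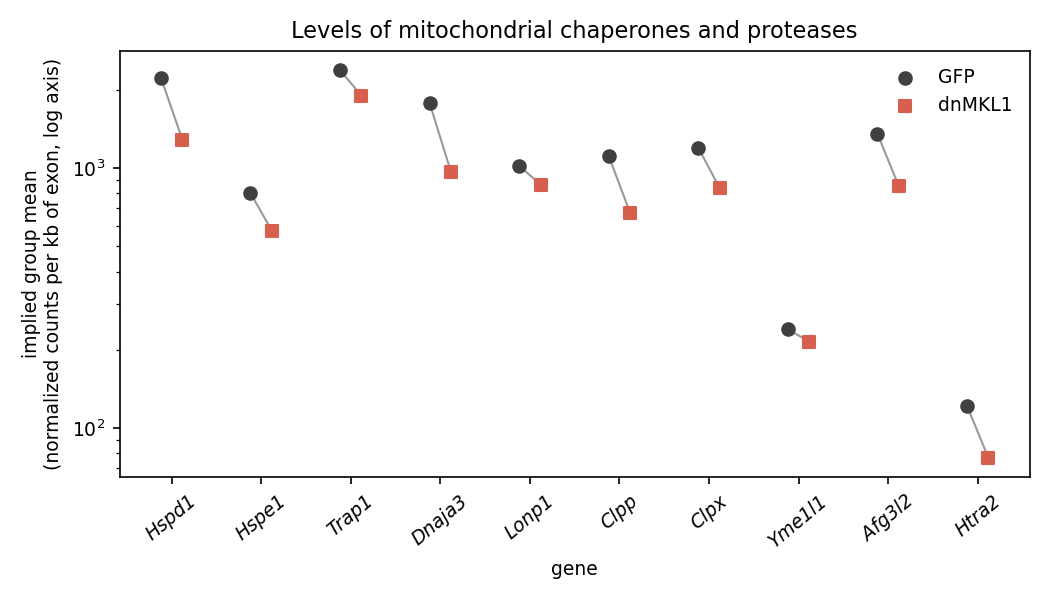
Implied group means of the 10 genes in normalized counts per kilobase of exon (log axis), with GFP as circles and dnMKL1 as squares and no error bar because no value per library was used. Trap1 stood highest and Htra2 lowest, and each dnMKL1 point lies below its GFP point under the authors' scaling, while equal-total scaling turns Lonp1 and Yme1l1.

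Levels per kilobase of exon spanned a wide range. In GFP they ran from 122 normalized counts per kilobase for Htra2 and 240 for Yme1l1 to 2229 for Hspd1 and 2382 for Trap1. The order from the top in GFP was Trap1, Hspd1, Dnaja3, Afg3l2, Clpx, Clpp, Lonp1, Hspe1, Yme1l1 and Htra2. In dnMKL1 Trap1 stayed first at 1898, Hspd1 followed at 1287, and Dnaja3 (964), Lonp1 (865), Afg3l2 (853) and Clpx (839) lay close together. Lonp1 was thus below Afg3l2, Clpx and Clpp in GFP and at or above them in dnMKL1, with no test of these positions.

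**Figure D2:**
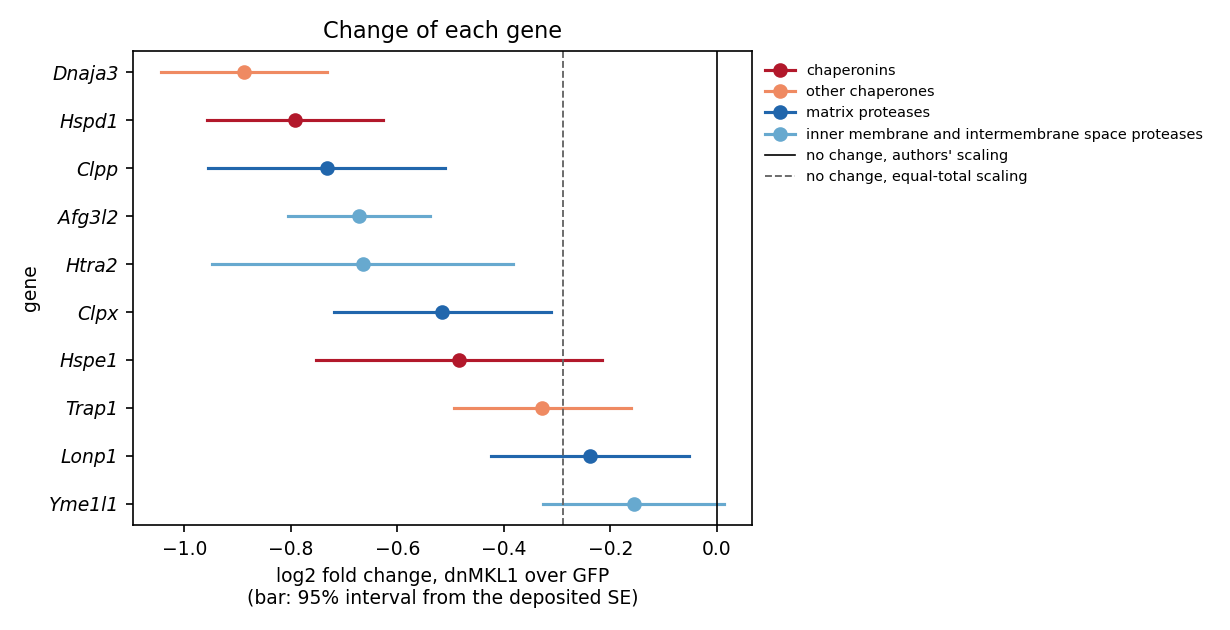
Log2 fold change (dnMKL1 over GFP) of each gene with its 95% interval from the deposited SE, coloured by role. The solid line is no change under the authors' scaling and the dashed line no change under equal-total scaling; all points lie left of the solid line, and Lonp1 and Yme1l1 lie right of the dashed one.

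Ordered by log2 fold change, neighbouring genes were mostly closer than the larger of their SEs. This held for 6 of 9 neighbouring pairs, and the exceptions were Dnaja3 and Hspd1, Htra2 and Clpx, and Hspe1 and Trap1, with gaps of 0.10, 0.15 and 0.16. The roles were mixed along the order: a J-domain protein, a chaperonin and a matrix protease came first, and an HSP90, a matrix protease and an inner membrane protease last.

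The replicate spread of each gene could not be measured without values per library, so only the spread that the deposited SE implies is given. That SE comes from a fitted model that can borrow information across genes, so the implied spread need not be a gene's own. The between-library coefficient of variation that the deposited SE implies, after counting error is taken out, ran from 7.24% for Afg3l2 to 14.4% for Hspe1, with a median of 9.71%. The median over the genes in the same range of base mean was 10.9%. Counting error made up 2.25% of the variance of the log2 fold change for Trap1 and 23.2% for Htra2, which had 107 to 271 fitted reads per library. In this estimate, depth was therefore a smaller part of the error than the implied spread between libraries for each of the 10.

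**Figure D3:**
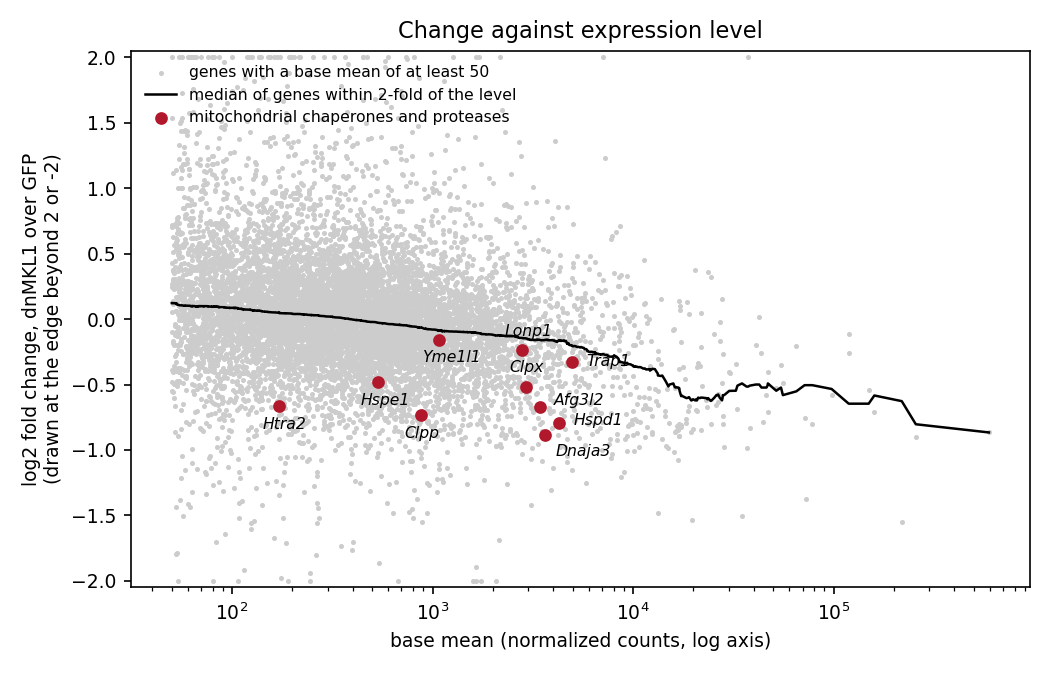
Log2 fold change against base mean (log axis) for genes at base means of 50 or more, with the median of genes within 2-fold of each level as a line and the 10 genes as labelled points. The line falls with level; Htra2, Clpp and Dnaja3 lie 0.67 to 0.73 below it, and Yme1l1, Lonp1 and Trap1 lie 0.07 to 0.12 below it.

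Since fold changes in these data became lower as expression rose, each gene was also set against the genes within 2-fold of its base mean. For Trap1 the median log2 fold change of 583 such genes was -0.21, and for Lonp1 that of 1223 genes was -0.14. With this median subtracted, 7 of the 10 genes stayed lower past the threshold. Of the 14056 genes tested, 2210 were lower and 2334 higher past it in that setting. Trap1 was then at -0.12 (adjusted p = 0.292) and Lonp1 at -0.09 (adjusted p = 0.506). Dnaja3 was at -0.73, Htra2 at -0.71, Clpp at -0.67 and Hspd1 at -0.63.

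The remaining mitochondrial chaperones, proteases and their scaffolds were described through lists of 23 genes. Of these, 18 were lower past the threshold and 0 higher, with a median log2 fold change of -0.45. Under equal-total scaling 8 were lower and 1 was higher, where 927 of the 14056 genes tested were lower and 5685 higher past the threshold. The shares over all genes tested, 17.4% lower and 16.6% higher under the authors' scaling, are the background for this and the later lists. Hspa9 (mortalin), the matrix HSP70 with which Dnaja3 works, had a log2 fold change of -0.88 (SE 0.09) in the authors' deposited table. Its nucleotide exchange factors Grpel1 and Grpel2 were at -0.83 (SE 0.12) and -0.45 (SE 0.08) in the authors' deposited table. Hscb and Dnlz, of which the first is the J-domain protein of iron-sulfur cluster assembly, did not pass, with log2 fold changes of -0.03 (SE 0.17) and 0.12 (SE 0.10) in the authors' deposited table. The prohibitins Phb and Phb2, ring-forming proteins that bind the m-AAA protease, fell by 0.80 and 0.75 on the log2 scale in the authors' deposited table. Stoml2, a scaffold of the i-AAA protease, was at -0.46 (SE 0.11) there.

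The m-AAA protease has further subunits. Spg7 (paraplegin) fell by 0.34 (SE 0.08) on the log2 scale in the authors' deposited table. Afg3l1, another subunit in mice, did not pass, at -0.19 (SE 0.08, adjusted Wald p = 0.0515) in the authors' deposited table. Implied means stood at 1.96 Afg3l2 counts to 1 of Spg7 in GFP and 1.56 to 1 in dnMKL1. Oma1 and Parl, stress-activated and rhomboid proteases of the inner membrane, fell by 0.36 (SE 0.11) and 0.50 (SE 0.06) on the log2 scale in the authors' deposited table. The subunits of the peptidase that removes import signals, Pmpca and Pmpcb, had nearly the same log2 fold changes in the authors' deposited table, -0.45 (SE 0.06) and -0.46 (SE 0.10). The lowest of the peptidases was Immp2l at -0.85 (SE 0.20) in the authors' deposited table, with a base mean of 71.4.

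Known substrates and partners of the proteases moved in both directions. Of 10 such genes, 8 were lower and 1 was higher past the threshold. Opa1, the fusion protein that Yme1l1 and Oma1 cleave, had a log2 fold change of -0.86 (SE 0.12) in the authors' deposited table. Tfam, the packaging factor of mitochondrial DNA that Lonp1 degrades, was at -0.72 (SE 0.10) in the authors' deposited table. Alas1, the heme synthesis enzyme that Clpx acts on, was at -1.25 (SE 0.18) in the authors' deposited table. Prelid1, a lipid carrier of the intermembrane space that Yme1l1 degrades, was the one that rose, at 0.83 (SE 0.10) in the authors' deposited table. Xiap, the caspase inhibitor that Htra2 binds, did not pass and was at 0.30 (SE 0.21) in the authors' deposited table. Under equal-total scaling 4 of the 10 were lower and 2 higher, where 927 of the 14056 genes tested were lower and 5685 higher past the threshold.

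Genes that signal mitochondrial stress split. Of 9 such genes, 4 were higher and 2 lower past the threshold. Atf5 and Ddit3 (CHOP), transcription factors linked to the mitochondrial unfolded protein response, rose by 1.04 (SE 0.29) and 0.80 (SE 0.25) on the log2 scale in the authors' deposited table, from implied means of 23.1 and 162 normalized counts. Gdf15, a secreted stress hormone, was at 3.88 (SE 0.43) in the authors' deposited table. Fgf21 also passed, at a base mean of 1.60, too low to give its size. Atf4 did not pass at the RNA level, with a log2 fold change of 0.15 (SE 0.12) in the authors' deposited table, and Hsf1, the heat shock transcription factor, fell by 0.32 (SE 0.08). The gene listed as 0610009O20Rik, which is Dele1, the relay of mitochondrial stress to the cytosol, fell by 0.81 (SE 0.11) on the log2 scale in the authors' deposited table. Equal-total scaling gave 6 higher and 1 lower among the 9, where 5685 of the 14056 genes tested were higher and 927 lower past the threshold.

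**Figure D4:**
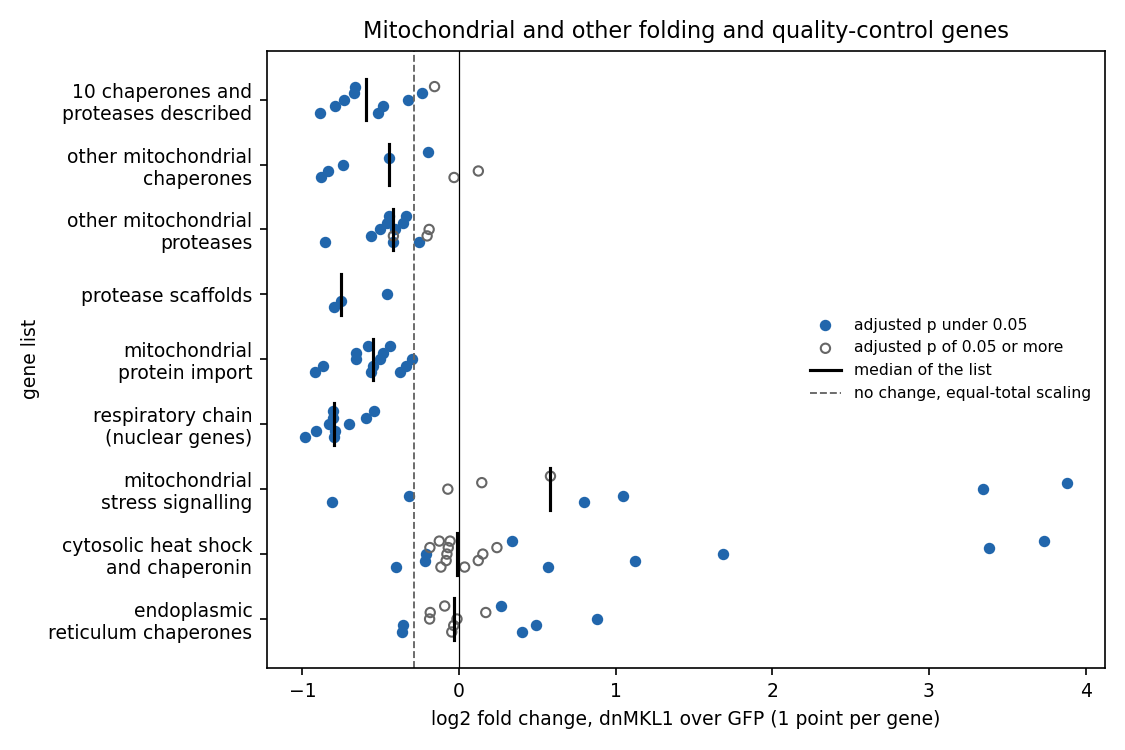
Log2 fold change (dnMKL1 over GFP) of each gene in 9 lists, filled where the adjusted p-value was under 0.05, with a bar at the median of each list and a dashed line at no change under equal-total scaling. The mitochondrial lists of chaperones, proteases, scaffolds, import and respiratory chain have medians from -0.80 to -0.42, while those of the cytosolic and endoplasmic reticulum chaperones are at -0.01 and -0.03 and become positive under equal-total scaling.

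Chaperones of other compartments are given beside the mitochondrial ones without a test of the difference between lists. Of 20 cytosolic heat shock and chaperonin genes, 6 were higher and 3 lower past the threshold, with a median log2 fold change of -0.01. Over all genes tested, 16.6% were higher and 17.4% lower. Under equal-total scaling 16 of the 20 were higher and 0 lower past the threshold, where 5685 of the 14056 genes tested were higher and 927 lower past it. Hsp90aa1, the inducible cytosolic HSP90, was at 1.12 (SE 0.11) in the authors' deposited table, where its mitochondrial relative Trap1 was at -0.33 (SE 0.08). Dnajb1, an inducible J-domain protein, was at 1.68 (SE 0.23) in the authors' deposited table, where Dnaja3 was at -0.89. The subunits of the cytosolic chaperonin, Tcp1 and Cct2 to Cct8, ran from -0.22 to 0.04 in the authors' deposited table, where Hspd1 was at -0.79. Hspa1a and Hspa1b, the inducible HSP70 genes, were at 3.38 (SE 0.64) and 3.73 (SE 0.68) in the authors' deposited table, values that are uncertain because the near-identical copies can share reads.

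The heat shock element was also searched in the windows of cytosolic chaperone genes. For comparison with the chaperonin promoter, the bases before the RefSeq start of Hspa1b are shown, at chr17:34959239-34959488 (GRCm38.p6, minus strand), with the match to GAANNTTC in capitals, 104 to 97 bases before the start.
Hspa1b promoter: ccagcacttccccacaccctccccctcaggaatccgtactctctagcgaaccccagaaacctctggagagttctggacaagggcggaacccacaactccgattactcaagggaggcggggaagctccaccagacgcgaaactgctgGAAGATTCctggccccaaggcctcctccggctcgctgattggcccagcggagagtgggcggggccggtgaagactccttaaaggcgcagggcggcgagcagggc
Of the 16 cytosolic chaperone genes with a window, 7 held GAANNTTC in any of their windows. Of these, 4 were higher past the threshold (Dnaja1, Hspa1a, Hspa1b and Hsph1) and 3 did not pass (Bag3, Cct2 and Hspb1). Over the whole cytosolic list, 6 of 20 were higher. Hspa1a and Hspa1b held the match at the same place, 104 to 97 bases before the start. As near-identical copies that can share reads, they are not independent holders. In Bag3 and Hsph1 the matches lay after the start and in the other 5 before it. Dnajb1, which rose, held none. A run of 3 units was found in 1 of the 16, Hsph1, after its start. Hsph1 was at 0.34 (SE 0.11) in the authors' deposited table, beside -0.79 and -0.48 for Hspd1 and Hspe1. A match describes the letters of a window and is not a measured binding site.

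Other motifs were counted in the same windows. A gene was again counted if any of its windows matched, so counts of genes and shares of windows are not like for like. The core of the NRF1 site (GCATGCGC, either strand), a factor of many nuclear genes for mitochondria, was found in 1 of the 8 genes, Clpx, and in 2.71% of all windows. The short binding sequence of estrogen-related receptors (AAGGTCA) was found in Trap1 and, as a single site that both windows cover, in Hspd1 and Hspe1, and in 4.72% of all windows. The CArG box of serum response factor, the partner of MKL1, had 0 matches in the 8 genes and was present in 1.63% of all windows, and TGATGCAA, an element of ATF4 with C/EBP factors, had 0 matches and was present in 0.895%. An absent match says only that these letters are not in these windows. Clpx is shown for its NRF1 core, and Dnaja3 as the gene with the lowest fold change, whose window held, of the motifs searched, only a CCAAT box. The Clpx stretch lies at chr9:65294010-65294259 and that of Dnaja3 at chr16:4683820-4684069 (both GRCm38.p6, plus strand), each before the RefSeq start. The RefSeq start used for Dnaja3 lies inside the GENCODE span of the gene given above, not at its edge. Capitals mark NRF1 core, GC box (GGGCGG) and CCAAT box on either strand.
Clpx promoter: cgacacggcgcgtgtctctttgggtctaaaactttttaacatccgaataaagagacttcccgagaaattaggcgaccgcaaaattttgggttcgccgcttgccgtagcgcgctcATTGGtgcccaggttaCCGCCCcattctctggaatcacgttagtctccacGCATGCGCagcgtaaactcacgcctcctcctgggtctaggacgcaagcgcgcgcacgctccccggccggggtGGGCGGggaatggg
Dnaja3 promoter: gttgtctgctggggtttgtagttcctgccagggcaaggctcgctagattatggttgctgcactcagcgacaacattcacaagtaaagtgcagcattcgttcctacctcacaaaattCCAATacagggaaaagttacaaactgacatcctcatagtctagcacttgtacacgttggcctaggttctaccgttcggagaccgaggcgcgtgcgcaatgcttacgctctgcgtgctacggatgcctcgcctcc
The GC box was found in 6 of the 8 genes (Clpx, Hspd1, Hspe1, Lonp1, Trap1 and Yme1l1) and in 35.7% of all windows, and the CCAAT box in 4 of 8 (Clpx, Dnaja3, Hspd1 and Yme1l1) and in 37.4% of all windows.

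Endoplasmic reticulum chaperones were 4 higher and 2 lower of 13 past the threshold, with a median of -0.03, and 7 higher and 0 lower under equal-total scaling. Over all 14056 genes tested, 16.6% were higher and 17.4% lower past the threshold. Under equal-total scaling 5685 of them were higher and 927 lower past it. Hspa5 (BiP), the HSP70 of the endoplasmic reticulum, had a log2 fold change of -0.36 (SE 0.08) in the authors' deposited table, beside -0.88 (SE 0.09) for Hspa9 of mitochondria. Mitochondrial protein import, through which the substrates of the chaperones arrive, was lower past the threshold in 13 of 13 genes, with a median of -0.55, and in 7 under equal-total scaling. The 10 nuclear-encoded respiratory chain genes were lower past the threshold in 10 of 10, with a median of -0.80, and in 10 under equal-total scaling. Set against genes of like level, 5 of the 10 respiratory chain genes and 13 of the 13 import genes stayed lower past the threshold. In that setting 2210 of the 14056 genes tested were lower and 2334 higher past it.

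Markers of cell types differed in direction, and their part in the result was not tested. All 6 cardiomyocyte markers had negative log2 fold changes, 5 of them past the threshold, and their summed implied means went from 1360137 to 725874 normalized counts. Of 6 fibroblast markers, 3 were higher and 0 lower past the threshold, with summed implied means of 3093 in GFP and 4303 in dnMKL1. Of 6 endothelial markers, 0 passed, with sums of 2239 and 2294. Mural markers had 2 higher and 1 lower of 6, with sums of 11753 and 7973. Acta2 alone, at 10450 and 4999, carried that fall. The other 5 mural markers all had positive log2 fold changes, with sums of 1299 and 2974. Cspg4 alone made up 500.6 and 2019 of these sums, and besides Cspg4 only Myh11 passed as higher. Leukocyte markers had 1 higher and 0 lower of 6, with sums of 136 and 123. Erythroid markers summed to 55 and 76, with 2 of 6 listed at 0. In bulk RNA, fewer cells of a type and less RNA per cell cannot be told apart.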

How the data were processed

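RNA sequencing of sorted mouse cardiomyocytes was used, with 5 GFP and 5 dnMKL1 libraries. Per the labels' protocols, 10 ng of total RNA entered a SMART-Seq kit, with 8 PCR cycles, and 500 pg of cDNA a Nextera XT kit. Reads were aligned with STAR (2.5.3a) and counted with featureCounts (Subread 1.5.2) on mm10, per the submitters' processing notes. The annotation, the use of strand and the version of the comparison tool are not given in the sources used here. Reads carry no molecular identifiers.

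The one table, with the columns of a DESeq2 result per the file headers, is the authors' comparison. Its base mean is a signal, deposited as normalized counts averaged over libraries. The fold change and SE were deposited on the log2 scale. The Wald statistic, a deposited score, equals the ratio of these within 1.14e-05. The deposited p-values were recomputed from it to within 4.06e-07, and the adjusted ones by Benjamini-Hochberg over 14056 genes to within 1.44e-07.

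From these, Python 3.11.15 (scipy 1.17.1, pandas 2.3.3) computed implied group means (the base mean being their average), 95% normal intervals, size factors (from genes with 1 read in 1 library, not matched to replicate numbers), library totals (the group's summed implied means scaled by the size factor) and the dispersion at which a negative binomial fit gives the deposited SE. Exon length is the union of GENCODE M21 basic exons. Rescaled fold changes kept the deposited SE. The scripts were tested on simulated data.

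Named genes are the 10 chosen by symbol, whatever their values, and, from 10 lists, genes past the threshold or at the ends of a list; Hscb, Afg3l1, Xiap, Atf4, Bag3, Hspb1, Cct2 to Cct5, Cct7 and Cct8, which did not pass, were named after their values were seen. Members and lists were chosen with earlier results of these data known. Atp23, Smdt1, Adgre1 and Hbb-bs were matched through older symbols (RefSeq synonyms). A list of 9 genes of mitochondrial DNA matched 0 symbols and was not used here. The planned count test was replaced by the deposited Wald test, which the plan named for a table without counts.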

Additional observations from a re-analysis of the deposited data

How the results depend on the processing

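No paired analysis was possible because the table used here has no column per library; the fits that each leave out 1 library, the replicate block and the other size factors were not run for the same reason, so whether 1 library decides a value was not tested. The 9 of 10 genes lower past the threshold remained 9 with adjustment over every p-value, with median-centring and at a threshold of 0.1, and became 8 at 0.01 (Lonp1 lost), 7 after centring on genes of like level (Trap1 and Lonp1 lost), 6 with a minimum absolute log2 fold change of 0.5 (Hspe1, Trap1 and Lonp1 lost, since fewer can pass) and 5 under equal-total scaling (Hspe1, Trap1, Clpx and Lonp1 lost), where Lonp1 turned to 0.0498 and Yme1l1 to 0.132 through the constant of 0.29. The 4792 genes of the whole table became 2735 with the minimum of 0.5, 3549 at 0.01, 5580 at 0.1, 4604 over every p-value, 4788 with median-centring, 4544 at like level and 6612 with equal totals. For the other lists the count of lower genes under equal totals went from 18 to 8 (other chaperones, proteases and scaffolds), 8 to 4 (substrates), 13 to 7 (import), 3 to 0 (cytosolic) and 2 to 0 (endoplasmic reticulum). Over all genes tested the count of lower genes went from 2452 to 927. Higher cytosolic genes numbered 10 at like level, against 6. Of the 14056 genes tested, 2334 were higher past the threshold at like level, against 2340.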
